A study of Mus musculus with 24 samples.

Results

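Dlx1, Dlx2, Dlx3, Dlx4, Dlx5 and Dlx6, the mouse distal-less homeobox genes, were chosen by name, and they are 6 of the 21627 protein-coding genes to which peaks were assigned. They lie as 3 neighbouring pairs: Dlx1 and Dlx2 on chromosome 2, Dlx3 and Dlx4 on chromosome 11, and Dlx5 and Dlx6 on chromosome 6. A peak was given to the gene whose span holds its midpoint, and otherwise to the nearest protein-coding gene within 1 Mb. Merging the ATAC peaks of all 8 libraries gave 157342 regions, of which 82 were assigned to a Dlx gene: 20 at Dlx1/2, 42 at Dlx3/4 and 20 at Dlx5/6.

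Dlx proteins are homeodomain transcription factors. The genes of a pair are transcribed towards each other and share regulatory elements, in part within the stretch between them. In the pharyngeal arches they act in neural crest cells, where Dlx1 and Dlx2 are active in both upper and lower jaw primordia. Dlx5 and Dlx6 act there downstream of endothelin signalling and give the lower jaw its identity. Dlx3 and Dlx4 are active nearer the arch tip. In the limb, Dlx5 and Dlx6 act in the apical ectodermal ridge, and Dlx5 also promotes the maturation of chondrocytes.

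All libraries described here came from wild-type C57BL/6 embryos. Open chromatin was assayed by ATAC-seq, in which a transposase cuts accessible DNA. It was profiled in Meckel's cartilage (MC), the cartilage rod of the lower jaw, at E14.5 (3 libraries), in forelimb cartilage (FL) at E14.5 (3 libraries) and in mandible at E12.5 (2 libraries). H3K27ac, a histone mark of active promoters and enhancers, was profiled by CUT&Tag in MC and FL at E14.5, and the authors deposited 1 combined list for each tissue. No label states whether replicates were separate animals or pools, so the spread between libraries may be technical. E12.5 mandible differs from MC in stage and dissection together, and from FL in body part as well, so these cannot be told apart.

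Peak lists without read counts were available, so the measure of open chromatin is the length of DNA under peaks per gene, in kb, with every list scaled to the mean total of the 8 lists. It says how much sequence passed the authors' peak threshold, not how open each site was, and the depth behind each list is unknown. The 8 ATAC lists held 43205 to 74706 peaks. E12.5 replicate 1 stood apart: it had a cover of 85.6 Mb against 40.7 to 53.0 Mb in the other 7 lists, and its base overlap with E12.5 replicate 2 (Jaccard index) was 0.198, against 0.363 to 0.470 between libraries of the same cartilage. Cartilage markers (10 genes, among them Sox9, Col2a1 and Acan) had a peak in every library, with a summed cover of 92.9 to 103.7 kb in MC, 92.9 to 105.3 kb in FL and 83.2 to 100.7 kb in E12.5 mandible. Epithelial markers (12 genes) summed to 25.7 to 37.2 kb in MC, 21.0 to 29.6 kb in FL, where Krt5 was at 0, and 34.5 to 46.8 kb in E12.5 mandible. Neuronal markers (8 genes) summed to 14.4 to 25.3 kb in MC, 19.9 to 22.0 kb in FL and 23.6 to 32.6 kb in E12.5 mandible. Dlx genes are also active in epithelium and in neurons, and the part of these cells in the values below was not tested. In mixed tissue, a smaller cover may come from fewer open cells or fewer open sites per cell, which cannot be told apart.

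Promoters of Dlx1, Dlx2 and Dlx6os1 are printed here. They are RefSeq sequences of the build GRCm38.p6, from 250 bases before to 50 bases after a transcription start, written 5′ to 3′ on the strand of the transcript. The Dlx1 promoter (chr2:71529195-71529494, plus strand) and the Dlx2 promoter (chr2:71546705-71547004, minus strand) are shown because they were open in both tissues and lay under an H3K27ac peak in MC alone. Both promoters of Dlx6os1, a non-coding RNA read from the strand opposite to Dlx6 and known for its part in Dlx5 and Dlx6 regulation, are shown because of where MC and FL peaks lay. The left one (chr6:6861634-6861933, minus strand) lay at least partly under a peak in every MC library (97, 44 and 300 of 300 bases). No FL library had a peak over it. The other (chr6:6869484-6869783, minus strand) ends beside the sole region at the 3 loci called in all MC and no FL libraries. Capitals mark TAATTA, a core sequence bound by many homeodomain proteins, which reads the same on both strands.
Dlx1 promoter: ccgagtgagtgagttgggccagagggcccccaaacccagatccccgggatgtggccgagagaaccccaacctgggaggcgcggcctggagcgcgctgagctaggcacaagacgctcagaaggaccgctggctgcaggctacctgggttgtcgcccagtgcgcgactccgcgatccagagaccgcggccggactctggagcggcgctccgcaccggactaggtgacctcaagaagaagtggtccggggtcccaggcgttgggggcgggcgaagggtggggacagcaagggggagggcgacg
Dlx2 promoter: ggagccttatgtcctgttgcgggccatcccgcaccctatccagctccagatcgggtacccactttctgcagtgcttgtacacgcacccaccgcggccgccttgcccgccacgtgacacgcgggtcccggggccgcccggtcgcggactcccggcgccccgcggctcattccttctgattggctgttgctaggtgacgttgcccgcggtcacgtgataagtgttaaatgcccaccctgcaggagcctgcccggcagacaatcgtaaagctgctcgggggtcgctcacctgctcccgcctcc
Dlx6os1 promoter, start at the right: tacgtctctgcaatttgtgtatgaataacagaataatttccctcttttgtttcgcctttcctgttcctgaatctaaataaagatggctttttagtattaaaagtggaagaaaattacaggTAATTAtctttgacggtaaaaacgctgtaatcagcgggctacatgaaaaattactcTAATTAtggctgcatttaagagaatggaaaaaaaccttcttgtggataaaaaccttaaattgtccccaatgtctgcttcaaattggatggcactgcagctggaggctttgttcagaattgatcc
Dlx6os1 promoter, start at the left: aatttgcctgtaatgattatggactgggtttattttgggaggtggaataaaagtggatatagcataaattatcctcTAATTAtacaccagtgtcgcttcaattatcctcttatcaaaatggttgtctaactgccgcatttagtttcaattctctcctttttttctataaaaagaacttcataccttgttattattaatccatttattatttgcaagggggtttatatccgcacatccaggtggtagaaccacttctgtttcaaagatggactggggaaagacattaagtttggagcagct

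TAATTA occurred 2 times in the right Dlx6os1 promoter, 1 time in the left one, and not in the Dlx1 and Dlx2 promoters, nor in those of the antisense transcripts Dlx6os2 and Dlx4os, which are not printed. All 6 of these promoters lay under an H3K27ac peak in MC and under none in FL. The share of all mouse promoters for which this holds was not computed. The promoters of Dlx6os1 and Dlx6os2 share a single MC peak. The MC peak over the Dlx4os promoter had a total signal of 22532, below the smallest signal in the FL list (25799). Of 32619 mouse promoters of this length, 5.25% held at least 1 copy and 0.383% held 2 or more. A match describes the sequence and shows no binding. GC content was 69.3% in the Dlx1 promoter and 66.3% in the Dlx2 promoter, against 35.7% and 35.3% in the Dlx6os1 promoters.

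**Figure D1:**
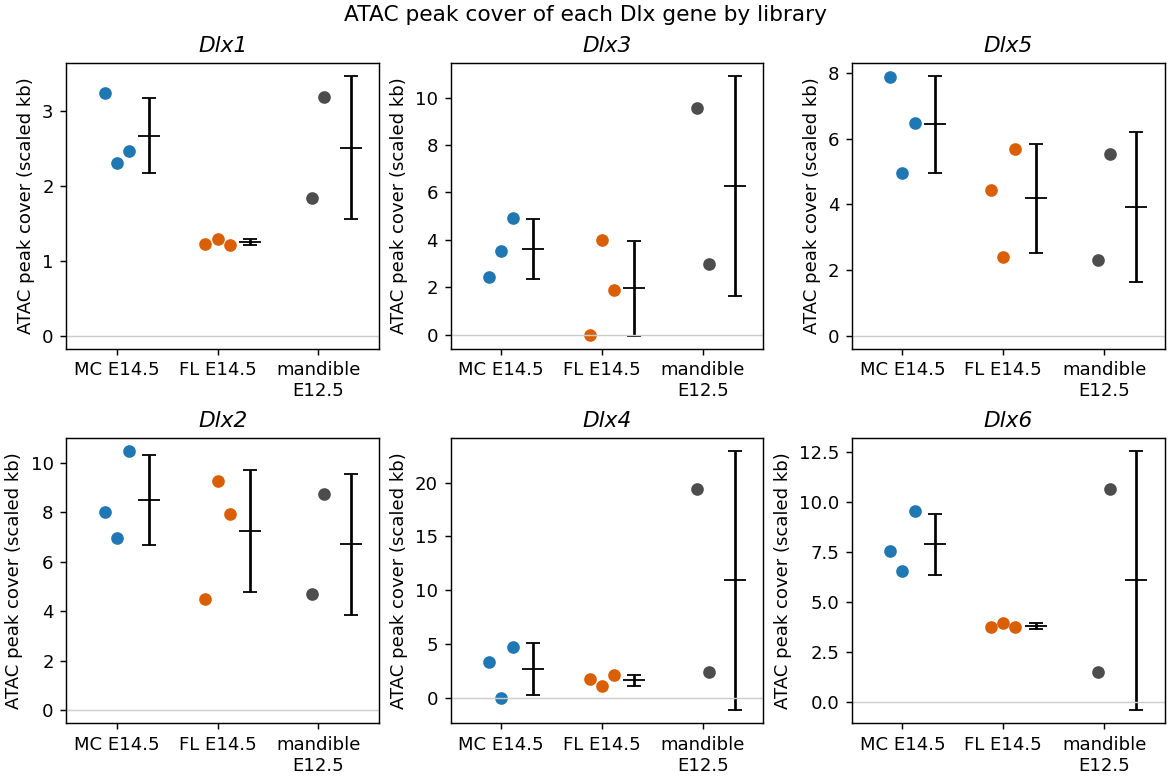
ATAC peak cover of each Dlx gene in scaled kb, 1 point per library, with the group mean and SD at the right of each group (3 MC, 3 FL and 2 E12.5 mandible libraries). Vertical scales differ between genes. The MC points of Dlx1 and Dlx6 all lie above the FL points, while those of the other 4 genes overlap, and the E12.5 libraries lie far apart for Dlx3, Dlx4 and Dlx6.

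Dlx5 and Dlx6 showed the largest difference in kb between jaw and limb cartilage of the 3 pairs, in the ATAC lists and in the combined H3K27ac lists. As a ratio of mean scaled ATAC cover, MC over FL, Dlx5/6 (1.79) and Dlx3/4 (1.74) were nearly equal, with Dlx1/2 at 1.31. A test of Dlx5/6 against Dlx1/2 did not separate their ATAC differences, and Dlx5/6 was not tested against Dlx3/4. Dlx6 (6:6863334-6867970, mm10) and Dlx5 (6:6877801-6882068) lie 9.83 kb apart, in a stretch bounded by Sem1 284.7 kb to the left and Sdhaf3 73.9 kb to the right. Together they were covered by 15.4, 11.5 and 16.0 scaled kb of ATAC peaks in MC replicates 1 to 3, by 8.18, 6.36 and 9.42 kb in FL, and by 3.79 and 16.2 kb in E12.5 mandible. Every MC library exceeded every FL library, whereas the 2 E12.5 libraries lay on either side of both cartilages. The means were 14.3 ± 2.46 kb in MC against 7.98 ± 1.54 kb in FL (SD, n = 3 each), a difference of 6.34 kb. The two-sided exact permutation p was 0.1, the smallest that 3 libraries against 3 can give, and 0.6 after Benjamini-Hochberg adjustment over the 9 locus comparisons.

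Dlx6, which is needed together with Dlx5 for a lower jaw, had a cover of 7.56, 6.57 and 9.56 kb in MC, 3.74, 3.96 and 3.73 kb in FL, with 1.49 and 10.7 kb in E12.5 mandible. MC and FL did not overlap, and the mean was 2.07-fold higher in MC (7.90 ± 1.52 against 3.81 ± 0.13 kb, SD, n = 3 each). The limma estimate of the difference, MC minus FL, was 0.95 on the log2(kb + 0.5) scale (SE 0.56, adjusted p = 1). That SE uses the spread shared by all 8 libraries, the 2 E12.5 libraries included. With MC and FL fitted alone, limma gave the same estimate, an unadjusted p of 0.00301 and an adjusted p of 0.187. In that fit 2041 of 16168 genes had an unadjusted p under 0.05. Dlx5, which acts in jaw patterning and in cartilage and bone maturation, had a cover of 7.89, 4.95 and 6.47 kb in MC, 4.44, 2.40 and 5.69 kb in FL, with 2.30 and 5.53 kb in E12.5 mandible. Here the lowest MC library lay below the highest FL library, and the limma difference was 0.61 (SE 0.43, adjusted p = 1), or 0.30 without FL replicate 2.

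The 20 regions at Dlx5/6 differed in how widely they were called. Called in all 8 lists were a region of 4.89 kb that begins left of Dlx6 and reaches into the gene (6:6859672-6864565), a region over Dlx5 (6:6877885-6882980) and a short one 2.67 kb to its right (6:6884189-6885289). With these 3, the 2 at Dlx1/2 and 0 at Dlx3/4, the class held 5 of 82 Dlx regions, against 10.0% of regions across the genome. The region at the left end of Dlx6 was longer in MC, with 3.07, 3.21 and 3.75 kb under peaks as listed, than in FL, with 1.22, 2.22 and 1.60 kb, while E12.5 mandible had 2.52 and 4.25 kb. Part of that difference is the left Dlx6os1 promoter printed above: 97, 44 and 300 of its 300 bases lay in peaks of MC replicates 1, 2 and 3, 0 bases in each FL library, and 0 and 293 bases in E12.5 mandible.

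Between Dlx6 and Dlx5, a region of 0.963 kb (6:6869808-6870770) was called in every MC library and in no FL library, with 0.613, 0.766 and 0.378 kb under peaks. It was the only 1 of the 82 Dlx regions in this class, which holds 0.367% of all regions. It was also called in E12.5 replicate 2 (0.955 kb), so it is not restricted to MC. Its peaks ranked low to middling in MC, at the 38.1, 45.3 and 21.2 percentile of the authors' score, and at 80.5 in E12.5 replicate 2. The right Dlx6os1 promoter, with 2 TAATTA copies, ends 24 bases from it, and no library had a peak over that promoter. Further right in the same interval, a region of 2.91 kb (6:6873444-6876355) was called in 7 lists, with 2.49, 0.811 and 1.97 kb in the MC libraries against 1.61, 0 and 1.81 kb in FL.

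The converse pattern also occurred once: a region 77 kb left of Dlx6 (6:6785768-6786832) was called in every FL library (0.676, 0.523 and 0.742 kb) and in no MC library, a class with 1.62% of all regions. E12.5 replicate 2 called it as well (0.789 kb), and no H3K27ac peak of either tissue lay over it. Another region, 32.8 kb left of Dlx6 (6:6829973-6831066), was called in every MC library (0.783, 0.619 and 0.774 kb) and in 2 FL libraries (1.09 and 0.407 kb), but in no E12.5 library, a class with 0.892% of all regions.

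**Figure D2:**
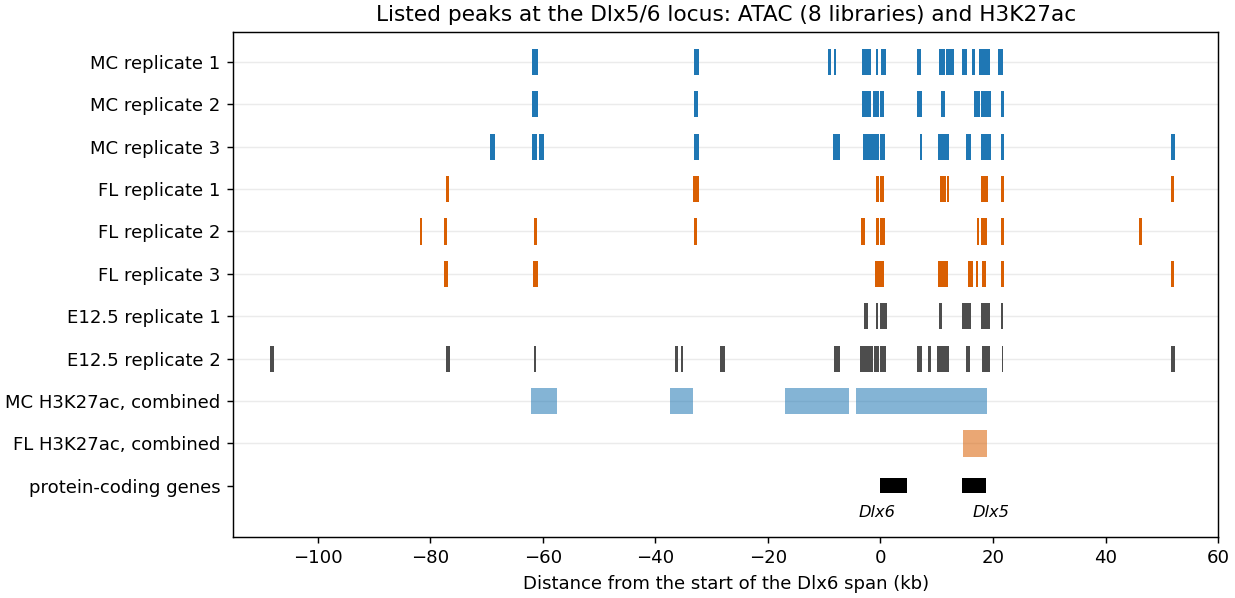
Peaks listed around Dlx5 and Dlx6, by distance in kb from the left end of Dlx6: ATAC peaks of the 8 libraries, the combined H3K27ac peaks of MC and FL, and protein-coding genes. The MC H3K27ac peak of 23.2 kb spans both genes, and the FL peak of 4.32 kb covers Dlx5 alone. ATAC peaks between the genes appear in every library except FL replicate 2.

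The combined H3K27ac lists differed more than the ATAC lists at this locus. In MC a single peak of 23.2 kb (6:6859009-6882258) ran across Dlx6, the interval and Dlx5, and its total signal stood at the 97.5 percentile of that list. Further MC peaks, 3 in number, lay 11.3 to 59.8 kb left of Dlx6 by their midpoints. In FL the locus had 1 peak of 4.32 kb over Dlx5 (6:6877992-6882311), at the 35.2 percentile of its list. The sums were 43.2 kb in MC against 4.32 kb in FL. Because the midpoint of the large MC peak is nearer to Dlx6, the rule lists Dlx6 at 43.2 kb and Dlx5 at 0 in MC. With each base assigned on its own, Dlx5 had 9.37 kb in MC against 4.32 kb in FL, and Dlx6 had 33.8 and 0 kb. The combined lists have no replicates, so no test applies.

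The lists of single H3K27ac libraries did not give the same order. They hold short peaks, and at Dlx5/6 they summed to 4.67, 4.58 and 1.96 kb in the MC libraries and to 7.16, 2.12 and 9.49 kb in FL. The groups overlapped, and the mean was higher in FL (6.26 ± 3.77 against 3.74 ± 1.54 kb, SD, n = 3 each). Of the 68 single-library H3K27ac peaks at the 3 loci, 13 overlapped the combined list of their own tissue. Statements on H3K27ac here therefore rest on the authors' combined lists alone.

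At Dlx1/2 the genes were open in all groups, and H3K27ac at the genes themselves was listed in MC alone. Dlx1 (2:71528113-71533981, plus strand) and Dlx2 (2:71543408-71546754, minus strand) lie 9.43 kb apart, with Metap1d 2.92 kb to the left and Itga6 240.1 kb to the right. The pair was covered by 11.2, 9.25 and 13.0 scaled kb in MC, 5.74, 10.6 and 9.14 kb in FL, with 6.52 and 11.9 kb in E12.5 mandible. These ranges overlapped (two-sided exact permutation p = 0.2 for MC against FL, 0.6 after adjustment over the 9 comparisons). The difference of 2.67 kb was 1.30 kb without FL replicate 1 and 1.76 kb without MC replicate 3. In the authors' combined ATAC lists, as listed, the pair had less cover in MC than in FL, 7.84 against 8.78 kb, which lay at Dlx2 (5.56 against 7.97 kb) and not at Dlx1 (2.28 against 0.803 kb).

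Dlx1, which with Dlx2 patterns the upper jaw and guides forebrain interneurons, had a cover of 3.24, 2.31 and 2.47 kb in MC, 1.23, 1.29 and 1.21 kb in FL, with 1.84 and 3.19 kb in E12.5 mandible. FL was the lowest group, below every library of the other 2, and its 3 values were nearly equal. MC exceeded FL 2.15-fold in the mean (2.67 ± 0.499 against 1.25 ± 0.041 kb, SD, n = 3 each). The limma difference was 0.85 (SE 0.33, 95% interval 0.12 to 1.58), with an unadjusted p of 0.0269 and an adjusted p of 0.949 over the 16168 genes tested. With MC and FL fitted alone, the limma p was 0.00413 unadjusted and 0.192 adjusted. Dlx2 had a cover of 8.01, 6.94 and 10.5 kb in MC, 4.51, 9.29 and 7.92 kb in FL, with 4.69 and 8.72 kb in E12.5 mandible, with overlapping ranges and a limma difference of 0.25 (SE 0.39, adjusted p = 1).

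The Dlx1 promoter printed above lay in a peak in all 8 libraries. It belongs to a region (2:71527989-71530827) with 2.38, 2.0 and 2.27 kb under peaks in MC, 0.985, 1.35 and 1.04 kb in FL, with 2.48 and 2.0 kb in E12.5 mandible as listed, so this peak was shorter in each FL library than in any MC library. All 300 promoter bases were in peaks in 7 libraries and 232 in FL replicate 1. The region over the Dlx2 promoter (2:71545290-71547429) was the other one called everywhere at this locus, and the printed bases themselves were in a peak in 7 of 8 libraries, with 0 in FL replicate 1. The 2 longer regions between the genes (2:71537431-71541947 and 2:71542144-71543329) were each called in 7 lists, and in each case the missing list was an FL library.

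In the combined H3K27ac lists, MC had a peak of 13.1 kb over Dlx1 (2:71522587-71535657) and a peak of 10.1 kb over the interval and Dlx2 (2:71537442-71547569), at the 87.9 and 87.7 percentile of that list. FL had none over either gene. Its 3 peaks at the locus lay 79.0 to 108.3 kb right of Dlx2, by their midpoints, at the 73.9, 77.1 and 4.04 percentile of the FL list, and MC had 3 peaks that overlapped the same stretch. The sums were 59.2 kb in MC against 28.0 kb in FL. In single libraries they were 0, 2.59 and 1.91 kb in the MC libraries against 0.597, 2.44 and 1.5 kb in FL, which overlapped.

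**Figure D3:**
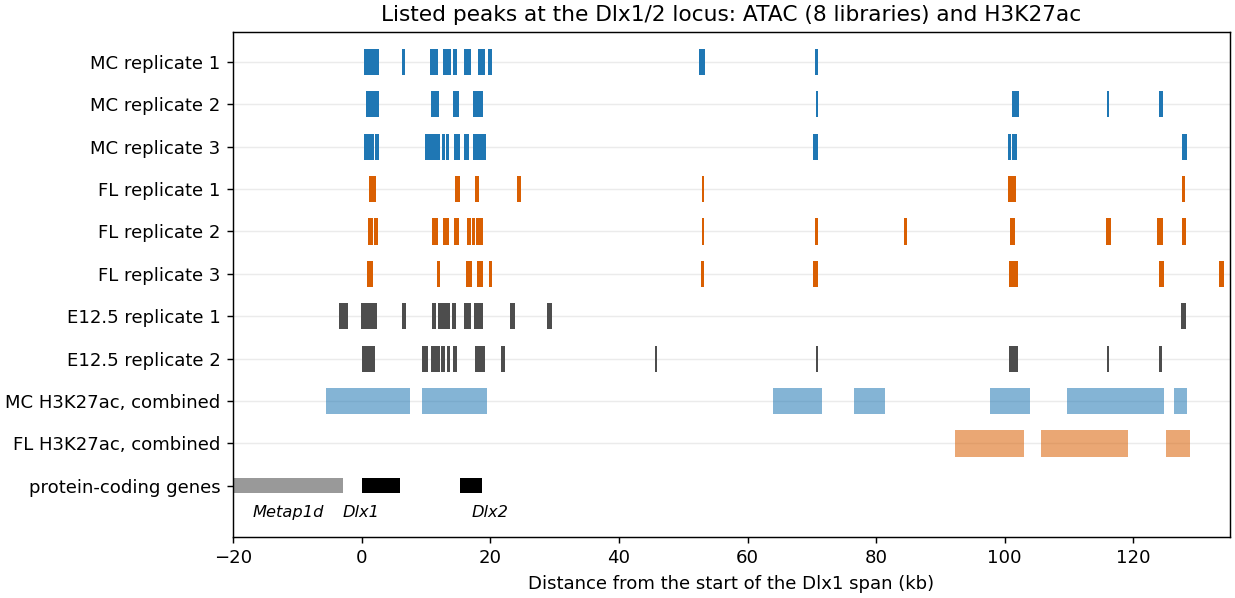
Peaks listed around Dlx1 and Dlx2, by distance in kb from the left end of Dlx1, drawn as for Dlx5/6. ATAC peaks at both genes appear in every group, MC H3K27ac peaks cover both genes, and the FL H3K27ac peaks begin 92.3 kb to the right of the Dlx1 left end.

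A region 34.3 kb right of Dlx2 (2:71580628-71581526) was called in every FL library (0.193, 0.358 and 0.38 kb) and in no E12.5 library, a class with 2.48% of all regions. MC replicate 1 called it too, at 0.899 kb. It was the only region of this class at the 3 loci.

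Dlx3/4 varied most between libraries, and mainly between the E12.5 replicates. Dlx3 (11:95120117-95125296) and Dlx4 (11:95140447-95146294) lie 15.2 kb apart, between Itga3 at 43.3 kb and Tac4 at 115.2 kb. The pair was covered by 5.79, 3.53 and 9.65 scaled kb in MC, 1.79, 5.10 and 3.99 kb in FL, with 29.0 and 5.41 kb in E12.5 mandible. E12.5 replicate 1 was the highest by far, with 40 peaks at the locus against 10 in replicate 2, and replicate 2 lay within the MC range. MC and FL overlapped (two-sided exact permutation p = 0.3, adjusted 0.675), and the difference of FL from E12.5 mandible had p = 0.2, the smallest that 3 libraries against 2 can give (adjusted 0.6). The mean differences from E12.5 mandible were -10.9 kb for MC and -13.6 kb for FL, and without E12.5 replicate 1 they were 0.909 and -1.79 kb.

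Dlx3, known for its part in hair, tooth and bone, had a cover of 2.42, 3.53 and 4.93 kb in MC, 0, 4.01 and 1.88 kb in FL, with 9.56 and 3.00 kb in E12.5 mandible. The limma difference of MC from FL was 1.19 (SE 0.75, adjusted p = 1). FL replicate 1 had no peak at Dlx3, and the difference was 0.29 without that library and 1.87 without FL replicate 2. Dlx4 had a cover of 3.37, 0 and 4.72 kb in MC, 1.79, 1.09 and 2.11 kb in FL, with 19.4 and 2.41 kb in E12.5 mandible. MC replicate 2 had no peak at Dlx4, and the limma difference from FL was 0.030 with a 95% interval of -2.03 to 2.09. In the authors' combined ATAC lists Dlx4 was at 0 kb in MC and FL and at 22.6 kb in E12.5 mandible.

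Regions followed the same pattern: 38 of the 42 Dlx3/4 regions were called in E12.5 replicate 1, and 19 in that list only. Across the 3 loci 21 of 82 were called in E12.5 replicate 1 only, against 20.0% of all regions. All 5 regions called in both E12.5 libraries and no FL library were at Dlx3/4 (1.81% of all regions are in this class), as were the 3 called in both E12.5 libraries and no MC library (1.59%). With E12.5 replicate 2 alone to represent its group, these classes held 15 and 11 of 64 Dlx regions, against 16.6% and 19.0% of all regions, which is near the background. The latter lay 1.19 kb left of Dlx3 (11:95118339-95119508), within Dlx3 (11:95123302-95124907) and 37.9 kb right of Dlx4 (11:95183369-95184992). In E12.5 replicate 2 they had 0.489, 0.514 and 0.291 kb under peaks, and in replicate 1 they had 1.17, 1.61 and 1.62 kb. The region at the left end of Dlx3 (11:95119629-95121044) was called in 7 lists, with 1.05, 1.10 and 0.940 kb in MC, 0, 0.562 and 0.466 kb in FL, with 1.38 and 0.257 kb in E12.5 mandible.

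**Figure D4:**
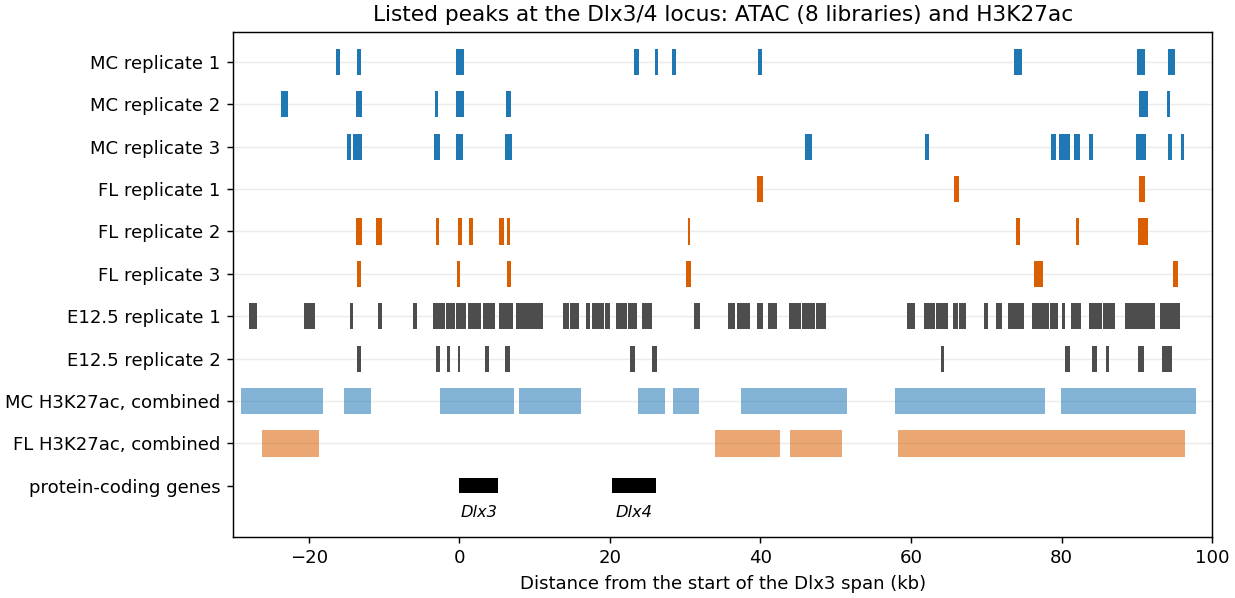
Peaks listed around Dlx3 and Dlx4, by distance in kb from the left end of Dlx3, drawn as for Dlx5/6. E12.5 replicate 1 lists peaks along most of the window and replicate 2 does not, and a combined H3K27ac peak covers Dlx3 in MC and not in FL.

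H3K27ac at Dlx3 was listed in MC and not in FL, while the flank of Dlx4 was marked in both. In MC a peak of 9.74 kb covered Dlx3 (11:95117611-95127355, 73.4 percentile of the list), and a peak of 3.50 kb (27.7 percentile) lay over the right end of Dlx4. In FL neither gene was covered. The smallest total signal listed was 16925 in MC and 25799 in FL, so the 2 lists have unlike limits. The MC peak over Dlx4 had a signal of 22532, and no FL peak of that signal could be listed. The FL peaks assigned to the pair lay right of Dlx4, and another FL peak, assigned to a neighbour, ended 18.6 kb left of Dlx3. The largest of those right of Dlx4, of 38.1 kb (11:95178351-95216438), stood at the 95 percentile of its list. MC had a peak of 19.9 kb in the same stretch (91.9 percentile). By midpoint Dlx3 had 21.6 kb in MC against 0 kb in FL, and Dlx4 had 40.9 and 53.5 kb, an order that turned with each base assigned on its own (48.1 kb in MC, 41.0 kb in FL). By that rule Dlx3 had 3.01 kb in FL, beside 21.8 kb in MC. Counted over the 3 loci, an H3K27ac peak in MC and none in FL was assigned to Dlx1, Dlx3 and Dlx6, 3 of 6 members, against 13.1% of the 14356 genes with a peak in either list. The reverse held for Dlx5 alone (7.91% of genes), which is a matter of assignment, since the MC peak across Dlx5 was given to Dlx6. With each base assigned on its own, Dlx1 and Dlx6 alone kept 0 kb in FL, and no member was at 0 in MC. Marker genes of other cell types also differed in this respect: of 8 neuronal markers 0 had no H3K27ac peak in MC and 5 had none in FL, of 8 skeletal muscle markers 4 and 6, of 12 epithelial markers 2 and 2, and of 10 cartilage markers 0 and 1. The part of these cells in the Dlx values was not tested. In the lists of single H3K27ac libraries, Dlx6 had 6.77, 1.45 and 7.78 kb in FL and 3.68, 4.58 and 1.96 kb in MC. Dlx1 had 0.799 kb in FL replicate 3 and 0.523 kb in MC replicate 2. Dlx3 had 1.11 kb in FL replicate 1, with 1.97 and 0.48 kb in MC replicates 1 and 3. In the combined lists the sums for the Dlx3/4 pair were 62.5 kb in MC and 53.5 kb in FL. Their difference of 8.95 kb turned to -1.66 kb when both lists were limited to the same smallest total signal, and was 25.9 kb with each base assigned on its own.

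**Figure D5:**
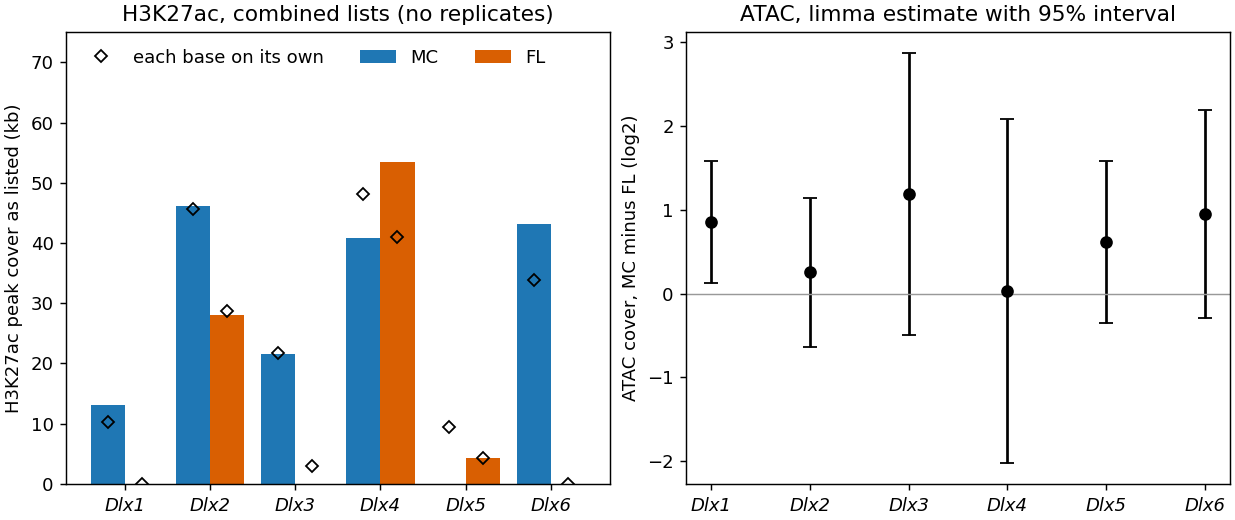
Left, combined H3K27ac peak cover in kb as listed for each Dlx gene in MC and FL (pooled lists, no error), with diamonds for cover when each base is assigned on its own. Right, the limma difference in ATAC cover, MC minus FL (3 libraries each), on the log2 scale with its 95% interval. The interval uses the spread shared by all 8 libraries, E12.5 mandible included. All 6 ATAC points lie above 0, at 0.03 to 1.19, and the interval of Dlx1 alone lies wholly above it.

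Across the 6 genes, ATAC cover was higher in MC than in FL by the limma estimate at all of them, with a median of 0.73 against 0.03 over the 16168 genes tested, of which 8618 were higher in MC. The sign turned for Dlx4 with a pseudocount of 0.1 kb (-0.52), with the number of peaks (-0.10), and without MC replicate 1, MC replicate 3 or FL replicate 2 (-0.39, -0.61 and -0.18), and for Dlx2 without FL replicate 1 (-0.035). With the number of peaks, scaled as the cover was, the median over all genes moved to 0.15 and that of the 6 members to 0.31. No Dlx gene passed an adjusted p of 0.05 by limma, and neither did any of the 16168 genes (0% called), with 846 (5.23%) at an unadjusted p under 0.05, Dlx1 among them. Libraries did not overlap, with MC higher, for 2 of 6 members, Dlx1 and Dlx6, against 9.17% of all genes. They did not overlap with FL higher for 0 of 6, against 8.99%.

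Against E12.5 mandible no consistent order was seen. Of the 6 genes, 4 were higher in MC than in E12.5 mandible, with a median of 0.23, equal to the 0.23 over all genes, and the libraries of each member overlapped, whereas 18.4% of all genes did not overlap in one direction or the other. FL was lower than E12.5 mandible at 4 of 6 genes, with a median of -0.44 against 0.25 over all genes. Dlx1 and Dlx4 did not overlap there, with E12.5 higher, against 9.75% of all genes, and no member lay wholly higher in FL (16.5%). By limma 0% of genes passed the adjusted threshold in either comparison, with 916 (5.67%) and 1994 (12.3%) at an unadjusted p under 0.05, and no Dlx gene among these. With cover as listed rather than scaled, the medians over all genes moved to -0.14 and -0.10, those of the 6 members to -0.22 and -0.84, and FL was then lower at all 6. These comparisons also rest on the E12.5 library used. Without replicate 2, 1 E12.5 library remained, which was assumed to vary like the other groups. The Dlx6 log2 difference was then 2.06 for MC and 1.11 for FL, beside medians over all genes of 0.55 and 0.60. Without replicate 1 the Dlx6 differences were -0.43 and -1.38, beside medians over all genes of 0.010 and -0.016.

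The difference between pairs was itself tested. The log2 ratio of Dlx5/6 to Dlx1/2 cover was 0.44, 0.30 and 0.30 in MC and 0.48, -0.69 and 0.04 in FL, with E12.5 mandible at -0.71 and 0.43. Its difference between MC and FL was 0.40 (two-sided exact permutation p = 0.4, adjusted 0.8 over 3 comparisons). Without FL replicate 1 it was 0.67 and without FL replicate 2 it was 0.088. A larger difference at Dlx5/6 than at Dlx1/2 was not detectable with 3 libraries each, since the smallest p this permutation test can give is 0.1.

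Open chromatin and H3K27ac were also read together, region by region. Of the 82 Dlx regions, 35 lay in an H3K27ac peak of MC alone, 2 of FL alone, 21 of both and 24 of neither. Over all regions, 9.26% lay in MC peaks alone and 9.18% in FL peaks alone. Among the 17 Dlx regions called in 5 or more ATAC lists, 14 lay in MC peaks alone and 0 in FL peaks alone, against 11.4% and 4.37% of the 32985 such regions across the genome. The other 3 were the region over Dlx5 and one 82.7 kb right of Dlx2, both marked in both tissues, and the short region right of Dlx5, marked in neither. The limit of 5 lists was chosen after the data were seen. With 4 or 6 lists the counts were 16 of 23 and 11 of 14, against 11.2% and 11.5% of all such regions. With the same smallest total signal in both lists the count was 12 of 17, against 5.78%. These regions are not independent: 4 of the 14 lie under the same MC peak at Dlx2 and 3 under the one at Dlx3. The regions 6:6859672-6864565 and 6:6873444-6876355 likewise share the MC peak of 23.2 kb at Dlx5/6. Regions called in 1 list only made up 38 of the 82, against 52.1% of all regions.

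Genes beside the pairs did not share one direction. The 3 nearest protein-coding genes on each side of each pair made 18 in all. MC libraries lay wholly above FL libraries at Samd14, Pdk2 and Tac4, all beside Dlx3/4. They lay wholly below at Itga6 and Rapgef4 beside Dlx1/2 and at Dync1i1 and Sdhaf3 beside Dlx5/6. Of all genes, 9.17% did not overlap with MC higher and 8.99% with FL higher. Itga6, an integrin subunit, had a cover of 1.13, 2.72 and 2.87 kb in the MC libraries against 3.38, 6.04 and 5.97 kb in FL. Sdhaf3, an assembly factor of succinate dehydrogenase, had a cover of 3.26, 2.12 and 3.45 kb in the MC libraries against 5.80, 4.04 and 5.23 kb in FL. Thus the nearest right-hand neighbours of Dlx1/2 and Dlx5/6 were covered more in FL. The nearest left-hand ones had higher means in MC with overlapping libraries: 3.03 ± 1.20 against 2.04 ± 0.784 kb for Metap1d, an aminopeptidase gene, and 3.78 ± 1.43 against 2.84 ± 0.538 kb for Sem1, a proteasome subunit gene (SD, n = 3 each). In the combined H3K27ac lists Metap1d was listed at 15.2 kb for MC and at 0 for FL, and Sem1 had 16.0 and 9.46 kb. None of the 18 neighbours passed the limma threshold.

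Of 45 genes that act with Dlx genes, such as endothelin pathway members upstream and jaw, limb and interneuron factors downstream, 44 could be tested. Of these, 25 were higher in MC and 19 in FL, with a median of 0.21 and none past the threshold. Gsc, a homeobox gene of the lower jaw downstream of Dlx5 and Dlx6, had a cover of 8.16, 6.24 and 9.20 kb in the MC libraries against 3.38, 1.08 and 0.832 kb in FL, without overlap (log2 difference 2.04, SE 0.45, limma adjusted p = 0.566). Pitx1, a homeobox gene of the lower jaw and the hindlimb, had a cover of 4.98, 6.54 and 8.13 kb in the MC libraries against 2.55, 1.85 and 0.698 kb in FL (1.76, SE 0.47, adjusted p = 0.824). Lhx6, a LIM homeobox gene of the jaw and of forebrain interneurons, had 5.83, 6.21 and 7.38 kb against 2.04, 2.20 and 3.37 kb (1.22, SE 0.33, adjusted p = 0.824). In the other direction Sp8, which maintains the apical ectodermal ridge, had 3.11, 1.88 and 3.55 kb in the MC libraries against 5.79, 8.88 and 7.90 kb in FL (-1.28, SE 0.52, adjusted p = 0.949). Trp63, an epithelial factor, had 0.533, 0.409 and 1.75 kb against 3.54, 3.44 and 2.19 kb (-1.45, SE 0.65, adjusted p = 0.950), and Sp9, another ridge factor, had 0.592, 1.05 and 1.30 kb against 1.51, 2.88 and 2.86 kb (-0.97, SE 0.49, adjusted p = 0.994). Against E12.5 mandible, 26 of the 44 were higher in MC and 26 in FL, again with none past the threshold. Of all 16168 genes tested, 10390 were higher in MC and 9947 in FL than in E12.5 mandible. Pitx1 and Gsc were also the genes with the smallest p among those lower in FL than in E12.5 mandible (limma differences of -2.49 and -1.86, adjusted p = 0.397 for both).

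Among genes elsewhere, those whose cover followed a Dlx pair most closely over the 8 libraries were Cpeb1, Vmn2r79 and Ccdc144b for Dlx1/2 (Pearson r of 0.969, 0.967 and 0.960), Llgl2, Mthfsd and Epha10 for Dlx3/4 (0.982, 0.963 and 0.963) and Gprin3, Taco1 and Txlng for Dlx5/6 (0.982, 0.981 and 0.973). These describe 8 points that share the difference between the E12.5 replicates, and they were the highest of 16160 genes, of which 15, 91 and 85 exceeded 0.9.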

How the data were processed

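Peak lists of 8 ATAC-seq and 6 H3K27ac CUT&Tag libraries and the authors' combined lists were used; Hi-C and 4C samples were not analysed here. The submitters' processing notes name Trim Galore, Bowtie2, SAMtools, Genrich, SEACR and mm10, without versions. The deposited ATAC lists hold the authors' peak score (200 or more) and a −log10 p, and the deposited H3K27ac lists hold the authors' total signal. Scores and signal served to rank or filter peaks within 1 list. For the E12.5 libraries titles and protocols were followed, since another label names a different stage and assay.

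Peaks on the autosomes and X were assigned by midpoint to protein-coding spans of RefSeq GRCm38.p6, the primary assembly of mm10. ATAC cover, as log2(kb + 0.5), was fitted with limma 3.58.1 (R 4.3.3) for all 8 libraries together and the 16168 genes with a mean of at least 0.3 kb, adjusted by Benjamini-Hochberg at 0.05; the fit was checked on simulated data. Locus values were compared by two-sided exact permutation of libraries (Python 3.11.15, numpy 2.4.6, pandas 2.3.3). Any peak overlapping a region by 1 bp counted as its call. Named genes are the 6 members, 3 neighbours on each side of each pair, up to 3 genes each way of a list of 45 Dlx-related genes by smallest limma p, and the 3 genes most like each pair. Named regions are those called in all 8 lists, or throughout one group and never in another, and those between paired genes, not all of which are printed. The members and lists were chosen with earlier results of these data known. The RefSeq promoter table was matched by symbol for 2 of 6 members; Dlx3, Dlx4, Dlx5 and Dlx6 promoters were not used here. Alternatives varied the pseudocount, filter, assignment, scaling, choice of peaks, libraries and replicate block.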

Additional observations from a re-analysis of the deposited data

How the results depend on the processing

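No limma call was made in the main analysis, and with 3 libraries a locus test cannot pass 0.05, so stability is described by direction. The 3 MC against FL locus differences from single libraries kept their direction under every alternative run. In these runs the number of peaks was scaled as the cover was. With 1 library left out the differences were 1.30 to 3.71 kb (Dlx1/2), 1.03 to 4.09 kb (Dlx3/4) and 5.50 to 7.75 kb (Dlx5/6). Unscaled, the number of peaks at Dlx1/2 was lower in MC (mean 10) than in FL (mean 11). The combined lists also had Dlx1/2 lower in MC. With a pseudocount of 0.1 kb limma called 20 genes for MC against FL, 11 for MC against E12.5 and 6 for FL against E12.5, no Dlx gene among them. Fitting MC and FL alone, or leaving out either E12.5 library, called 8 for MC against FL. Leaving out 1 library gave 0 to 8, 0 to 3689 and 0 to 6120 genes, the last 2 without E12.5 replicate 2, when Dlx6 passed (2.06, and 1.11 for FL).

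Members turned sign as follows. MC against FL: Dlx4 -0.52 (pseudocount of 0.1 kb), -0.10 (number of peaks) and between -0.61 and 1.09 with 1 library left out; Dlx2 between -0.035 and 0.45. Without a sign turn, Dlx3 ranged from 0.29 to 1.87 and Dlx5 from 0.30 to 0.85. MC against E12.5: with cover as listed Dlx1 -0.32 and Dlx2 -0.12; with the same number of best-scored peaks Dlx1 -0.087; with 1 library left out Dlx1 -0.23 to 0.43, Dlx2 -0.057 to 0.77, Dlx3 -1.33 to 0.19 and Dlx6 -0.43 to 2.06. FL against E12.5: Dlx2 -0.0020 (assignment up to 100 kb), -0.35 (as listed) and -0.34 (better-scored 50% of each list); Dlx5 -0.32 (as listed) and -0.066 (better-scored 50% of each list); with 1 library left out Dlx2 -0.31 to 0.52, Dlx5 -0.44 to 0.67 and Dlx6 -1.38 to 1.11.

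Locus differences that turned sign, in kb, all involve E12.5. Dlx1/2, MC against E12.5, was -1.22 as listed and -0.757 to 4.63 with 1 library left out; FL against E12.5 was 1.71 with the number of peaks and -3.42 to 1.96 with 1 left out. Dlx3/4, MC against E12.5, ranged from -22.7 to 0.909. Dlx5/6 ranged from -1.88 to 10.5 for MC and from -8.22 to 4.19 for FL, and was 0.0504 for FL with the number of peaks. The ratio of Dlx5/6 to Dlx1/2 (log2) ranged from 0.088 to 0.67 for MC against FL, and from -0.083 to 1.06 for MC and -0.49 to 0.65 for FL against E12.5, and for FL was -0.085 with the number of peaks and -0.0019 with the same number of best-scored peaks. The pseudocount and the filter do not enter locus cover, nor the filter the ratio.

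Counts of Dlx regions moved as follows, in the order all 8 lists (5), MC not FL (1), FL not MC (1), MC not E12.5 (1), E12.5 not MC (3), FL not E12.5 (1) and E12.5 not FL (5). They were 0, 4, 0, 2, 0, 0 and 3 of 82 when peaks had to cover 50% of a region, against 3.21, 0.425, 1.13, 1.12, 1.01, 2.18 and 1.21% of all regions. With the combined lists they were 14, 4, 5, 4, 32, 6 and 33 of 56, against 34.0, 7.31, 19.8, 11.0, 36.2, 22.5 and 35.3% of all regions. With the same number of best-scored peaks (68 Dlx regions), MC not FL was 2, MC not E12.5 2, E12.5 not MC 1, FL not E12.5 0 and E12.5 not FL 3. With 1 library left out they ranged over 5 to 8, 1 to 2, 1 to 2, 1 to 4, 3 to 28, 1 to 3 and 5 to 30, the high E12.5 counts without E12.5 replicate 2 (11 and 15 without replicate 1).

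H3K27ac, MC minus FL, at Dlx1/2, Dlx3/4 and Dlx5/6 was 24.3, -1.66 and 34.8 kb with the same smallest total signal, 27.2, 25.9 and 38.9 kb with each base assigned on its own, and -0.0113, 0.0460 and -2.52 kb in single-library lists. As a share of each list's total signal it was 0.00877, 0.00355 and 0.0134 percentage points; Dlx1/2 was 32.9 kb with assignment up to 100 kb. The region counts with H3K27ac in MC alone at other list limits, an alternative chosen after the data were seen, stayed within 1.5-fold, and 12 of 15 regions were so marked without E12.5 replicate 1.

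Whether replicate numbers pair the samples cannot be settled with 3 libraries in each group. Deviations of same-numbered MC and FL libraries correlated weakly, at 0.0427, 0.0519 and 0.0482. Those of differently numbered ones correlated at -0.0471 to -0.0037, so each library correlated best with its own number. With the replicate number as a block, limma called 0 genes in each comparison and Dlx5 in FL against E12.5 turned to -0.12. The Dlx5/6 difference of 6.34 kb then had an exact p of 0.25 by sign flips over same-numbered pairs. That is the smallest p these pairs can give, and MC was higher in every pair.

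The cause of these shifts was not tested. The depth of each library is unknown, so short or missing peaks in 1 library, such as Dlx3 in FL replicate 1 and Dlx4 in MC replicate 2, cannot be told from peaks under the authors' threshold.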
